A study of Homo sapiens with 3 samples.

Results

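Glutathione S-transferases (GSTs) were examined in parental MM468 cells and in lines derived from them that survive chemotherapy. The genes described are GSTP1, GSTM2, GSTM3, GSTM4, GSTA4, GSTO1, GSTK1, MGST1, MGST2 and MGST3, which are 10 of the 46427 genes of the deposited table. They were taken by gene symbol, and the set was chosen by the read counts of the 3 libraries compared here, with the 0 counts of GSTP1 in the adriamycin-resistant line in view. Their levels and differences are therefore given as descriptions without a test.

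MM468 is the MDA-MB-468 line, an epithelial line of triple-negative breast cancer (TNBC), labelled wild type and untreated. Adriamycin-resistant MM468 cells are the survivors of exposure to adriamycin, an anthracycline also called doxorubicin, at 10 to 140 nM. Paclitaxel-resistant MM468 cells are the survivors of exposure to paclitaxel, a drug that stabilizes microtubules, at 2 to 320 nM. One library was sequenced from each line, so no difference has a replicate check, no SD can be given, and a difference between the libraries cannot be told apart from a difference between cultures. Both resistant lines are compared with the same parental library, so the values of the comparisons are not independent.

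GSTs join the tripeptide glutathione to reactive, mostly oily compounds, which makes them more soluble and ready for export. The cytosolic enzymes fall into classes such as pi (GSTP1), mu (the GSTM genes), alpha (the GSTA genes), omega (GSTO1), theta and zeta. GSTK1 is the kappa-class enzyme of mitochondria and peroxisomes, and the microsomal enzymes MGST1, MGST2 and MGST3 are membrane proteins unrelated to the cytosolic ones in sequence. In epithelial tumours GSTP1 is known as an abundant member and as a binding partner of stress kinases.

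The counts summed to 32704885 in the parental library, 47567927 in the adriamycin-resistant library and 43242628 in the paclitaxel-resistant library. A level of 3 counts, the upper limit that a count of 0 allows, corresponds to 0.0917, 0.0631 and 0.0694 CPM, the counts scaled to a common library total, respectively. All 7 markers of breast epithelium looked for had at least 10 counts in each library, at 47.3 to 2500 TPM, a level scaled by transcript length and library total. Summed TPM was 2.79 to 13.8 for 5 leukocyte markers, 7.72 to 13.3 for 4 fibroblast markers and 0.304 to 0.408 for 3 endothelial markers. COL1A1 made up most of the fibroblast sum, with 659, 1629 and 820 counts in the parental, adriamycin-resistant and paclitaxel-resistant libraries. DCN had 0, 0 and 14 counts, and COL1A2 and LUM were at 0 in all 3 libraries. CD68 made up most of the leukocyte sum, with 206, 527 and 65 counts. The part of these markers in the GST values was not tested.

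Counts were compared between pairs of libraries on genes with 10 or more counts in 1 of the 2, after normalization of library sizes with the trimmed mean of M values (TMM). Fold changes and their logarithms come from this comparison. The 95% interval in parentheses after a fold is the exact binomial interval of the ratio of 2 counts and covers counting error only. Against 0 counts a fold is given as a bound against 3 counts in that library. Levels of different genes are set side by side only in the deposited TPM, which are corrected for transcript length.

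GSTP1 (Gene ID 2950) lies on the plus strand at chr11:67583812-67586653 of GRCh38.p14 in the RefSeq annotation. It had 1160 counts in parental MM468, 0 in the adriamycin-resistant line and 2434 in the paclitaxel-resistant line. These counts correspond to 35.5, 0 and 56.3 CPM and to 106, 0 and 180.3 TPM. The adriamycin-resistant library, the deepest of the 3, was thus the only one with a count of 0 for this gene. Its level there was at least 569-fold lower than in parental MM468 and at least 753-fold lower than in the paclitaxel-resistant line. GSTP1 was 1.36-fold higher in the paclitaxel-resistant line than in parental MM468 (1.26 to 1.46), a difference beyond counting error and below 2-fold. Its size depended on the scaling. The log2 fold change was 0.44 after TMM, 0.67 with library size only and 0.76 in deposited TPM with a pseudocount of 1. In bulk libraries, a change in the number of cells that express a gene and a change in RNA per cell cannot be told apart.

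The 250 bases upstream of the RefSeq start of GSTP1 are shown because this is the gene without reads, with those of GSTM3 beside them as the other member that was at least 2-fold lower in the adriamycin-resistant line. Capitals mark the match to the core letters of the antioxidant response element (TGACNNNGC), a site bound by the stress factor NRF2. The sequences are those of RefSeq on GRCh38.p14, read 5′ to 3′ on the strand of the gene.
GSTP1, plus strand, chr11:67583562-67583811: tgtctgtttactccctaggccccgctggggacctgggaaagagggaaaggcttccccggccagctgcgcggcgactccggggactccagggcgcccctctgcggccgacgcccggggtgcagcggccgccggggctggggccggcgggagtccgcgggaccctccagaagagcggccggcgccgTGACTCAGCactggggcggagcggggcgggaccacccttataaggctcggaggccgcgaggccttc
GSTM3, minus strand, chr1:109741039-109741288: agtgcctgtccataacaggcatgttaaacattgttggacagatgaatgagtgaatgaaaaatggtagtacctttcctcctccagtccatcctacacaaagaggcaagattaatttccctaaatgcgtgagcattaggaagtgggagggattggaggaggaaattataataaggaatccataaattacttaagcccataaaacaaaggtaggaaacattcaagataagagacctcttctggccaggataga

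The GSTP1 window held 28 CpG dinucleotides and 74.8% G and C, against 1 CpG and 40% in the GSTM3 window. Fewer CpGs than in the GSTP1 window were found in 84.1% of 35116 RefSeq promoter windows of this length, whose median was 11. Methylation of these cells was not measured here. The marked letters of GSTP1 begin 66 bases before the start and overlap a match to the AP-1 site (TGACTCA). On either strand, TGACNNNGC was present in 10.9% of all windows and TGACTCA in 4.2%. Windows were found for 9 of the 10 genes, and MGST2 had none in the table used. Of the other members, GSTO1 held 2 matches to TGACNNNGC, at 226 and 161 bases before 1 of its starts, and GSTA4 held 1 at 9 bases. GSTM2, GSTM3, GSTM4, GSTK1, MGST1 and MGST3 held no such match in these windows. The GC box letters GGGCGG, present in 42.6% of all windows, occurred 2 times in the GSTP1 window and were not found in that of GSTM3. A match to letters is a description and was not tested as a binding site.

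Of the 10 protein-coding genes nearest to GSTP1 on chromosome 11, CABP2 and TBX10 had 0 counts in all 3 libraries, and the other 8 had counts in the adriamycin-resistant line. None of these 8 differed 2-fold between the adriamycin-resistant and parental lines, with log2 fold changes from −0.81 for ACY3 to 0.29 for NDUFV1 and a median of 0.03. NDUFV1, the next gene after GSTP1 and a subunit of mitochondrial complex I, had 6973, 12560 and 9809 counts in the parental, adriamycin-resistant and paclitaxel-resistant lines. In the paclitaxel-resistant line 3 of the 8 were at least 2-fold lower than in parental MM468, beside 13.5% of all 19099 genes compared. These were NUDT8 at a log2 fold change of −1.77, ACY3 at −1.66 and ALDH3B2 at −1.92. ACY3 had only 43 parental and 21 paclitaxel-resistant counts.

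**Figure D1:**
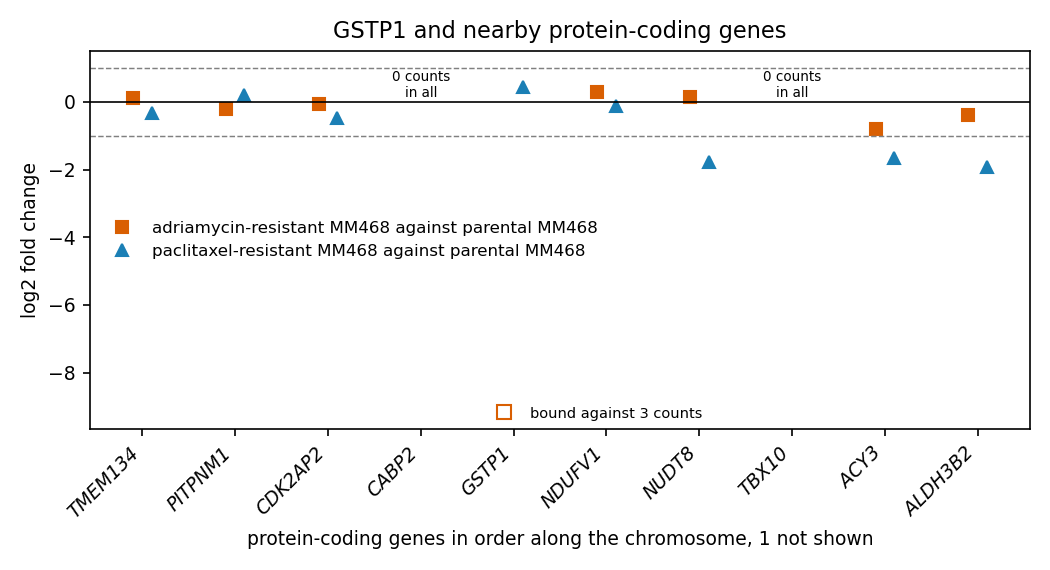
Log2 fold change of GSTP1 and of the protein-coding genes nearest to it on each side, in gene order, with 1 of the 10 left out of the plot and CABP2 and TBX10 marked as having 0 counts, for the adriamycin-resistant (squares) and paclitaxel-resistant (triangles) lines against parental MM468, with 1 library per line. The open square is the bound of −9.15 for GSTP1 against 3 counts, and the neighbours with counts lie between −0.81 and 0.29 in the adriamycin-resistant line.

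A count of 0 beside 100 or more counts in both other libraries was rare. Of 11162 genes with 100 or more counts in both parental and paclitaxel-resistant cells, 6, or 0.0538%, had 0 counts in the adriamycin-resistant line. GSTP1 had the highest parental count of the 6. The others were the metallothionein MT1E with 964 parental and 707 paclitaxel-resistant counts, CADPS2 with 357 and 407, CDRT4 with 225 and 420, the read-through JMJD7-PLA2G4B with 205 and 208, and VGLL3 with 196 and 2616. CADPS2, CDRT4, JMJD7-PLA2G4B and VGLL3 were chosen after their values were seen. By the same rule 18 of 11408 genes were at 0 in parental MM468 alone and 4 of 11213 in the paclitaxel-resistant line alone.

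The 5 protein-coding genes whose CPM pattern lay nearest to that of GSTP1, by Euclidean distance of log2(CPM + 1) over the 3 libraries among 19672 genes, were DIPK2A, NEFH, MT1E, DPYD and ERP27, at distances of 1.64 to 2.29. Only MT1E among these 5 was also at 0 counts in the adriamycin-resistant line. NEFH, the heavy neurofilament chain, had 1179, 61 and 989 counts in the parental, adriamycin-resistant and paclitaxel-resistant lines. DPYD, which breaks down pyrimidines, had 664, 87 and 1592 counts, and DIPK2A had 464, 24 and 1327. ERP27, an endoplasmic reticulum protein, had 927, 181 and 2290 counts. With 3 libraries this likeness is a description of 3 values per gene.

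The mu-class genes GSTM4, GSTM2 and GSTM3 lie in 1 cluster on chromosome 1, at 109656099-109667727, 109668057-109683997 and 109733937-109741038 of GRCh38.p14. GSTM3 (Gene ID 2947) was the most abundant of them, at 75.9 TPM in parental MM468, 24.5 in the adriamycin-resistant line and 45.3 in the paclitaxel-resistant line. Its 4623, 2272 and 3404 counts gave a level 2.99-fold lower than parental in the adriamycin-resistant line (2.85 to 3.15) and 2.10-fold lower in the paclitaxel-resistant line (2.01 to 2.2). GSTM3 was thus lower in both resistant lines, and lowest after adriamycin.

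GSTM4 (Gene ID 2948) had 598, 569 and 443 counts, or 28.2, 17.1 and 16.7 TPM, in the parental, adriamycin-resistant and paclitaxel-resistant lines. It was 1.55-fold lower than parental in the adriamycin-resistant line (1.38 to 1.74) and 2.09-fold lower in the paclitaxel-resistant line (1.84 to 2.37). GSTM2 (Gene ID 2946) was close to the lower end of detection, with 19, 18 and 6 counts and less than 1 TPM in each library. Its 4.80-fold lower level in the paclitaxel-resistant line had a wide interval (1.88 to 15.0), and its interval in the adriamycin-resistant line included no difference. GSTM3 and GSTM4 were below parental in both resistant lines, and GSTM2 beyond counting error only in the paclitaxel-resistant line. The summed level of the 3 mu-class genes was 105 TPM in parental MM468, 42.2 in the adriamycin-resistant line and 62.3 in the paclitaxel-resistant line.

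Reads of GSTM2 and GSTM4 cannot always be assigned to a single gene. Of the 50-base windows of their coding sequences in the GENCODE annotation, 11.1% for GSTM2 and 27.6% for GSTM4 also occur in another GST gene, most often GSTM1. The longest stretch that GSTM2 shares with GSTM4, from base 121 to base 198 of the GSTM2 coding sequence, is printed because a read inside it fits both genes. GSTM5 holds the same stretch, and GSTM1 shares bases 85 to 177 of GSTM2, so such a read is not limited to GSTM2 and GSTM4.
GSTM2 and GSTM4, shared coding stretch: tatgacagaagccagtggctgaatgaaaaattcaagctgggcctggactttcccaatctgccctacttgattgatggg
The values of GSTM2 and GSTM4 are uncertain to this extent. GSTM3 shares at most 26 bases in a row with any of the other 4 mu-class genes, and no window of 50 bases. Windows of this length were likewise not shared for GSTP1, GSTA4, GSTO1, GSTK1, MGST1, MGST2 or MGST3.

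GSTA4 (Gene ID 2941, chr6:52977953-52995284), the alpha-class enzyme that acts on 4-hydroxynonenal, a product of lipid peroxidation, had 55, 89 and 100 counts in the parental, adriamycin-resistant and paclitaxel-resistant lines. Its levels of 2.98, 3.12 and 4.22 TPM were low in all 3 libraries. Both ratios to parental, 1.10-fold (0.777 to 1.57) in the adriamycin-resistant line and 1.17-fold (0.837 to 1.66) in the paclitaxel-resistant line, had intervals that include no difference. A difference was not detectable at this depth.

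GSTO1 (Gene ID 9446, chr10:104254173-104267455), an omega-class enzyme with thioltransferase and dehydroascorbate reductase activity, had 802, 1496 and 795 counts, or 66.1, 81.1 and 53.4 TPM. It was 1.27-fold higher than parental in the adriamycin-resistant line (1.16 to 1.38) and 1.56-fold lower in the paclitaxel-resistant line (1.41 to 1.72). The resistant lines thus lay on opposite sides of parental MM468, and the paclitaxel-resistant line was 2.03-fold below the adriamycin-resistant line (1.86 to 2.21). The latter log2 difference, −1.02 after TMM of the pair, was −0.99 with TMM over the 3 libraries and −0.77 with library size only, short of 2-fold.

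GSTK1 (Gene ID 373156, chr7:143263441-143269115) showed the same arrangement at a higher level. Its 2725, 4797 and 2153 counts correspond to 175 TPM in parental MM468, 203 in the adriamycin-resistant line and 111 in the paclitaxel-resistant line. It was 1.20-fold higher than parental after adriamycin (1.14 to 1.25) and 1.96-fold lower after paclitaxel (1.85 to 2.07), so that the paclitaxel-resistant line was 2.40-fold below the adriamycin-resistant line (2.28 to 2.53).

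MGST1 (Gene ID 4257, chr12:16347115-16593331), a membrane enzyme with both transferase and glutathione peroxidase activity, was the most abundant of the 10 genes in every library. It had 6165 counts and 450 TPM in parental MM468, 12625 counts and 606 TPM in the adriamycin-resistant line, and 7737 counts and 458 TPM in the paclitaxel-resistant line. In the adriamycin-resistant line it was 1.39-fold higher than parental (1.35 to 1.43). Its log2 fold change in the paclitaxel-resistant line against parental was −0.30 after TMM and 0.03 in deposited TPM with a pseudocount of 1, so the scaling decides its direction there.

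MGST2 (Gene ID 4258, chr4:139665819-139754618), which can also form leukotriene C4, had 665, 1621 and 627 counts, or 58.4, 93.7 and 45.2 TPM. Of the 10 genes it was the one furthest above parental in the adriamycin-resistant line, at 1.66-fold (1.51 to 1.82), and it was 1.64-fold below parental in the paclitaxel-resistant line (1.47 to 1.83). The paclitaxel-resistant line was 2.79-fold below the adriamycin-resistant line (2.54 to 3.06).

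MGST3 (Gene ID 4259, chr1:165631234-165656136), a glutathione peroxidase of membranes, lay below parental in the adriamycin-resistant line, where MGST1 and MGST2 lay above it. Its 1408, 1478 and 1310 counts, or 88.9, 59.4 and 67.3 TPM, were 1.40-fold lower than parental in the adriamycin-resistant line (1.30 to 1.51) and 1.66-fold lower in the paclitaxel-resistant line (1.54 to 1.79). Between the resistant lines its log2 difference was −0.28 after TMM and 0.18 in deposited TPM with a pseudocount of 1, and no direction is given.

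**Figure D2:**
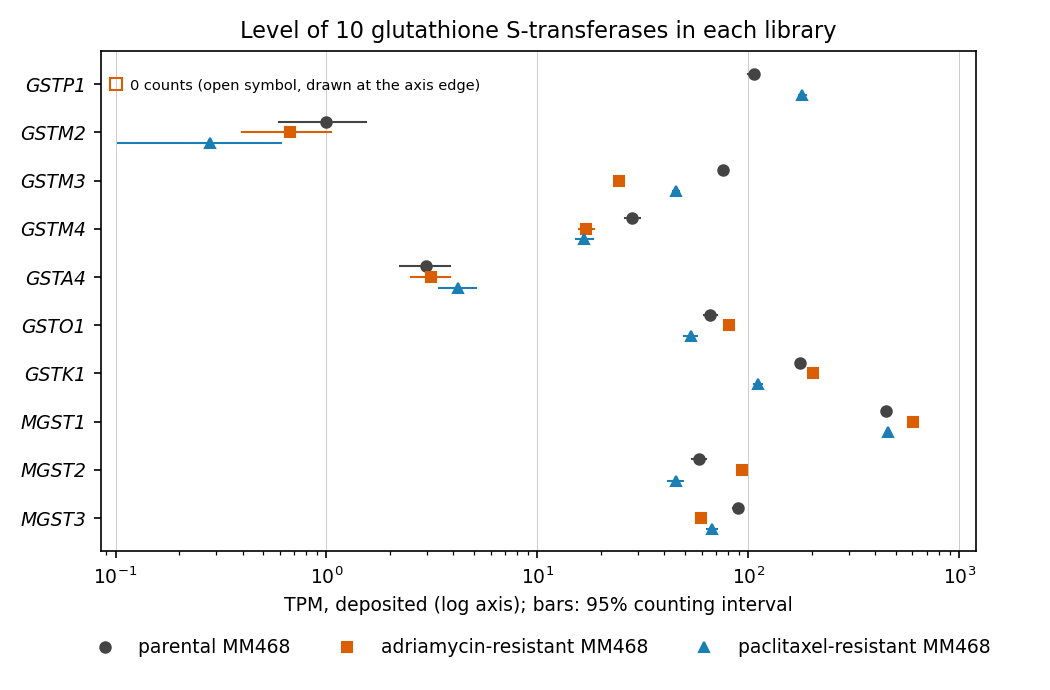
Deposited TPM of the 10 genes on a log axis in the parental (circles), adriamycin-resistant (squares) and paclitaxel-resistant (triangles) libraries, with 1 library per line and bars for the 95% counting interval. GSTP1 stands at 106 TPM in parental and 180.3 in paclitaxel-resistant cells and has 0 counts in adriamycin-resistant cells (open square), while MGST1 is highest in each library.

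Against parental MM468, 2 of the 10 genes, GSTP1 and GSTM3, were at least 2-fold lower in the adriamycin-resistant line and 0 were at least 2-fold higher. Of all 17950 genes compared between these libraries, 11.4% were lower and 10.9% higher by 2-fold or more. The median log2 fold change was −0.18 over the 10 genes and 0.02 over all genes, with 5 of the 10 above 0 and 5 below. Without GSTP1, the median over the other 9 was 0.14.

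In the paclitaxel-resistant line, 3 of the 10 genes were at least 2-fold lower than parental and 0 at least 2-fold higher. The 3 were GSTM2, GSTM3 and GSTM4. Of all 19099 genes compared, 13.5% were lower and 20.5% higher by 2-fold or more. The median log2 fold change was −0.72 over the 10 genes and 0.07 over all genes. GSTP1 and GSTA4 were the 2 genes above 0, and the other 8 were below, of which MGST1 was above 0 in deposited TPM. With library size as the only scaling, 1 of the 10, GSTM2, remained at least 2-fold lower, the median over the 10 was −0.50 and that over all genes 0.30.

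Between the resistant lines, GSTP1 was at least 2-fold higher in the paclitaxel-resistant line, and GSTM2, GSTO1, GSTK1 and MGST2 were at least 2-fold lower. These are 1 and 4 of the 10 genes, beside 19.4% of 19327 genes that were at least 2-fold higher and 14% that were at least 2-fold lower. The median log2 difference was −0.64 over the 10 genes and 0.04 over all genes. GSTM3 was 1.39-fold higher in the paclitaxel-resistant line (1.32 to 1.47), and GSTM4 was 1.38-fold lower (1.22 to 1.57).

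**Figure D3:**
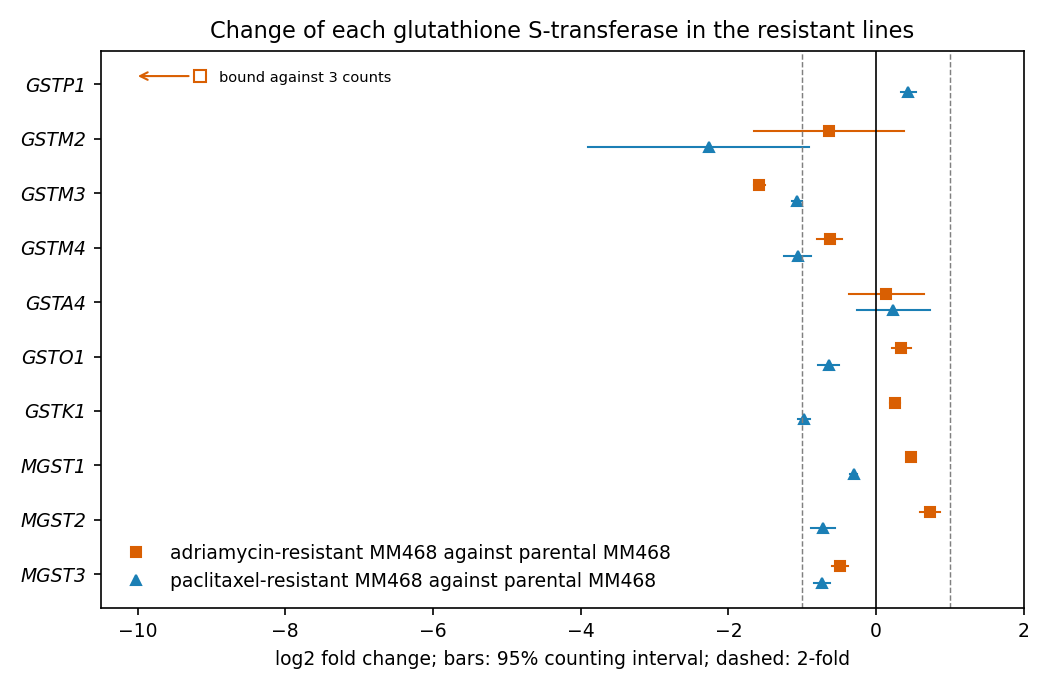
Log2 fold change of each gene in the adriamycin-resistant (squares) and paclitaxel-resistant (triangles) lines against the shared parental library, with bars for the 95% counting interval and dashed lines at 2-fold. GSTP1 is drawn at its bound of −9.15 in the adriamycin-resistant line, and GSTO1, GSTK1, MGST1 and MGST2 lie above 0 in that line and below 0 in the paclitaxel-resistant line, where MGST1 turns to 0.03 in deposited TPM.

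Summed over the 10 genes, the deposited level was 1053 TPM in parental MM468, 1088 in the adriamycin-resistant line and 982 in the paclitaxel-resistant line. The sum in the adriamycin-resistant line was 1.03 times parental although GSTP1 was at 0 counts, and 1.15 times parental over the other 9 genes. The sum over those 9 in the paclitaxel-resistant line was 0.846 times parental. The make-up differed more than the sum. The microsomal genes MGST1, MGST2 and MGST3 held 56.8% of the sum in parental MM468, 69.7% in the adriamycin-resistant line and 58.1% in the paclitaxel-resistant line. The cytosolic pi, mu and alpha genes (GSTP1, GSTM2, GSTM3, GSTM4 and GSTA4) together with GSTO1 held 26.6%, 11.6% and 30.6%. GSTP1 alone held 10.0% of the sum in parental MM468 and 18.4% in the paclitaxel-resistant line.

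The order of the 10 genes by TPM began with MGST1 and GSTK1 in parental and adriamycin-resistant cells, and with MGST1 and GSTP1 in paclitaxel-resistant cells. GSTP1 held rank 3 in parental MM468 and last in the adriamycin-resistant line. GSTM4, GSTA4 and GSTM2 were the 3 lowest in parental and paclitaxel-resistant cells, and the 3 lowest above GSTP1 in the adriamycin-resistant line. Neighbours in this order had overlapping counting intervals only for GSTO1 and MGST2 in parental MM468 and for GSTM3 and MGST2 in the paclitaxel-resistant line. These intervals leave out the spread between cultures.

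**Figure D4:**
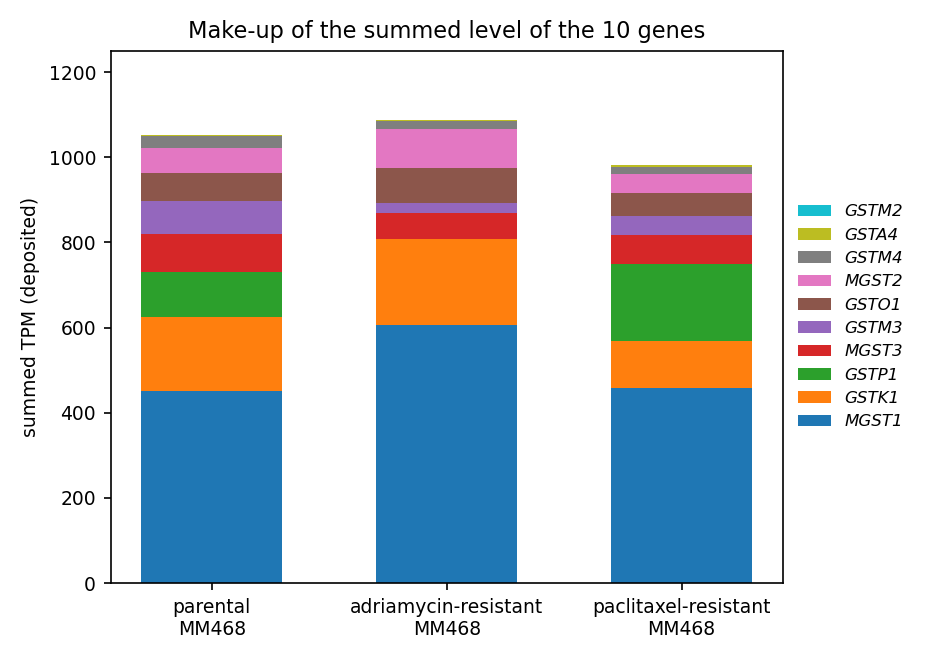
Deposited TPM of the 10 genes stacked for each of the 3 libraries, with 1 library per line and no error. The total is 1053, 1088 and 982 TPM in parental, adriamycin-resistant and paclitaxel-resistant cells, and the segment of GSTP1 is missing in adriamycin-resistant cells.

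Of 17 other genes of the wider GST family looked for, 16 were found in the table, and GSTT1 was not analysed here. Of these, 5 had 0 counts in all 3 libraries, among them GSTM5 of the GSTM cluster. GSTZ1, the zeta-class enzyme of tyrosine breakdown, had 590, 1834 and 953 counts and was 2.11-fold higher than parental in the adriamycin-resistant line (1.92 to 2.32), the only family gene at least 2-fold higher there. Its ratio to parental was 1.04 in the paclitaxel-resistant line (0.941 to 1.16).

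LTC4S, the leukotriene C4 synthase, had 35, 9 and 17 counts and was 5.65-fold lower than parental in the adriamycin-resistant line (2.70 to 13.5) and 3.17-fold lower in the paclitaxel-resistant line (1.74 to 6.06). PTGES, the inducible prostaglandin E synthase, had 2700, 2260 and 1157 counts and was 3.61-fold lower than parental in the paclitaxel-resistant line (3.37 to 3.87). In the adriamycin-resistant line PTGES was 1.76-fold lower (1.66 to 1.86). Counts for the alpha-class GSTA1 were low, at 16, 12 and 4, and GSTA2 had 9, 12 and 0.

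The theta-class genes GSTT2 and GSTT2B share over 85% of their 50-base coding windows with each other, 85.7% and 85.4%, so their counts of 54, 115 and 45 and of 92, 228 and 79 cannot be assigned to either gene with certainty. Both were at least 2-fold lower in the paclitaxel-resistant than in the adriamycin-resistant line. GSTM1 had 13, 23 and 13 counts, and 26.7% of its coding windows occur in another GST gene. Of the 10 other family genes kept, 1 was at least 2-fold higher and 1 lower by that margin in the adriamycin-resistant line. Of 9 kept in the comparison of the paclitaxel-resistant line, GSTA1, LTC4S and PTGES were at least 2-fold lower, and 0 were higher by that margin.

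Genes that make, recycle, break down and export glutathione and its conjugates were read beside the transferases. Glutathione is built from glutamate, cysteine and glycine, and its first step, by the GCLC and GCLM subunits, limits the rate. GCLC had 2423, 2494 and 2166 counts and GCLM 2642, 2904 and 3181. GCLC was below parental at a log2 fold change of −0.52 in the adriamycin-resistant line and −0.79 in the paclitaxel-resistant line, and GCLM at −0.42 and −0.36. SLC7A11, the cystine importer, had log2 fold changes of −0.14 and 0.34.

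Of the 10 synthesis genes, 1 was at least 2-fold lower in the adriamycin-resistant line and 2 in the paclitaxel-resistant line, and 0 were at least 2-fold higher in either. The neutral amino acid carrier SLC1A4, with 2701, 843 and 1420 counts, was lower in both lines, by 4.72-fold (4.36 to 5.10) and 2.94-fold (2.76 to 3.14). The glutamine carrier SLC1A5, with 12943, 11216 and 5678 counts, was 3.53-fold lower in the paclitaxel-resistant line (3.42 to 3.64). CTH, which makes cysteine from cystathionine, had 160, 148 and 425 counts and was 2.66-fold higher in the paclitaxel-resistant than in the adriamycin-resistant line (2.2 to 3.23).

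Of 14 recycling and peroxidase genes kept, 2 were at least 2-fold higher and 0 lower by that margin in the adriamycin-resistant line. TXNRD1, the thioredoxin reductase, had 9533, 35633 and 24763 counts and was 2.54-fold higher there (2.48 to 2.60). The peroxidase GPX2 had 0, 10 and 14 counts, which makes it at least 2.26-fold higher in the adriamycin-resistant and at least 3.02-fold higher in the paclitaxel-resistant line. In the paclitaxel-resistant line 1 was at least 2-fold higher, GPX2, and 3 were at least 2-fold lower. These were GSR, the glutathione reductase, with 3434, 6515 and 2579 counts, the peroxidase GPX8 with 1364, 1421 and 843, and IDH1, a source of NADPH, whose log2 fold change was −1.08. GSR was 1.29-fold higher than parental in the adriamycin-resistant line (1.24 to 1.34) and 2.06-fold lower in the paclitaxel-resistant line (1.96 to 2.17). GPX4, the peroxidase of membrane lipids, had log2 fold changes of −0.22 and −0.83 in the adriamycin-resistant and paclitaxel-resistant lines.

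Among genes that break down glutathione and its conjugates, the aminopeptidase ANPEP had 3767, 1578 and 7562 counts. ANPEP was 3.51-fold lower than parental in the adriamycin-resistant line (3.31 to 3.73), the only one of 9 kept genes of this list at least 2-fold changed there. Of 10 kept against the paclitaxel-resistant line, 1 was at least 2-fold above parental there and 2 at least 2-fold below. GGT1, the gamma-glutamyltransferase, had 424, 317 and 159 counts and was 4.12-fold lower (3.43 to 4.98), and CHAC1, which cleaves glutathione in the cytosol, was 2.07-fold lower (1.74 to 2.46). OPLAH, which opens 5-oxoproline, had 0, 8 and 15 counts and was at least 3.23-fold higher. The 5 other glutathione-dependent enzymes were all within 2-fold in both lines.

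Of the 7 transporters that export glutathione conjugates, 1 was at least 2-fold higher and 1 lower by that margin in each resistant line, and they were different genes. In the adriamycin-resistant line ABCC3, with 2646, 11255 and 5241 counts, was 2.89-fold higher than parental (2.77 to 3.02), and ABCC4, with 811, 266 and 1562 counts, was 4.49-fold lower (3.90 to 5.17). In the paclitaxel-resistant line ABCC1, with 1406, 2399 and 4620 counts, was 2.12-fold higher (2.00 to 2.26). ABCC6, with 15, 32 and 10 counts, was 2.30-fold lower there, with an interval that includes no difference (0.976 to 5.78).

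The regulators included NFE2L2, which encodes NRF2, its inhibitor KEAP1, and the small MAF proteins that pair with NRF2. NFE2L2 had 5230, 5205 and 3932 counts, with log2 fold changes of −0.56 in the adriamycin-resistant line and −1.04 in the paclitaxel-resistant line. KEAP1 had 6953, 11092 and 4971 counts, with log2 fold changes of 0.12 and −1.11. MAFF had 1209, 602 and 579 counts and was at least 2-fold lower in both lines, at −1.56 and −1.69, and the related factor NFE2L3 was at −0.96 and −1.21. In all, 1 of 8 regulators was at least 2-fold lower in the adriamycin-resistant line, where 11.4% of all genes were, and 4 of 8 in the paclitaxel-resistant line, where 13.5% were. With library size only, KEAP1, NFE2L2 and NFE2L3 lost the call in the paclitaxel-resistant line, and MAFF kept it. Of 4 binding partners of GSTP1, the kinase gene MAPK8 was at least 2-fold lower in the paclitaxel-resistant line, at −1.12, and the other 3 were within 2-fold in both lines.

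The scaling bears on these lists in the paclitaxel-resistant line. Taking the genes of the lists, the other family genes and the neighbours of GSTP1 together, 19 of 74 were at least 2-fold below parental after TMM and 11 with library size only, an alternative added after the data were seen. The 8 that lost the call were ABCC6, CHAC1, GSR, IDH1, KEAP1, MAPK8, NFE2L2 and NFE2L3, and CTH became at least 2-fold higher. Between the resistant lines the counts of lower genes were 16 and 9 of 75, and ABCC3, GGT1, GSTZ1, PTGES and SLC1A5 were among those that lost the call. The counts of higher genes were 3 and 7, with 4 genes, ABCC1, LTC4S and OPLAH among them, becoming at least 2-fold higher, and 9 genes changed sign. Against parental, 4 genes of the paclitaxel-resistant line changed sign, among them the neighbour NDUFV1. For the adriamycin-resistant line against parental, the calls did not change, with 4 of 74 higher and 5 lower under both scalings.

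**Figure D5:**
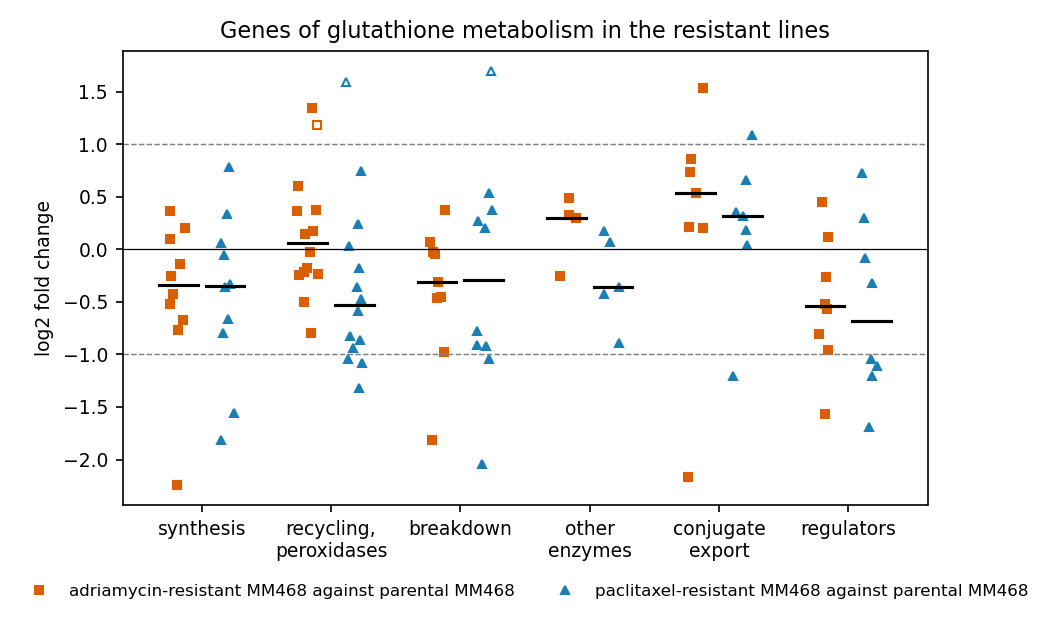
Log2 fold change of each kept gene in 6 lists of glutathione metabolism in the adriamycin-resistant (squares) and paclitaxel-resistant (triangles) lines against parental MM468. Open symbols are bounds against 3 counts, black lines are list medians and dashed lines mark 2-fold, and the median of the 8 regulators lies at −0.54 and −0.68 in the 2 lines.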

How the data were processed

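RNA-seq was performed on 1 library of each line, prepared with a stranded mRNA kit and sequenced by Macrogen Japan Corp. Samples were assigned to lines by their labels. The submitters' processing notes name Trimmomatic 0.39, HISAT2 2.2.1, StringTie 2.2.1 and GRCh38. The counting program, its strand setting and the annotation release are not given in the sources used here. The authors deposited raw read counts as whole numbers for 46427 genes keyed by NCBI Gene ID. The deposited table also holds FPKM and TPM values computed by the authors.

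The 3 pairs of libraries were compared on their counts with edgeR 4.0.16 in R 4.3.3, with TMM normalization, a minimum of 10 counts in 1 of the 2 libraries and a prior count of 0.125. With 1 library per line there are no residual degrees of freedom for the quasi-likelihood test, so no p-value is given. A change of at least 2-fold was counted as changed. Intervals are exact (Clopper-Pearson) and cover counting error only. Other settings tried were library size only, size factors of DESeq2 1.42.0, TMM over the 3 libraries, a prior count of 2, no count minimum or a minimum of 100, a 4-fold threshold, and TPM or FPKM with a pseudocount of 1 or TPM with 0.1. Only the fold change step was run on simulated counts, with known changes drawn higher or lower at random. That setting lacks the excess of higher genes in the paclitaxel-resistant line. Bounds, intervals, TPM sums and sequence steps were not simulated.

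The 10 genes and the pathway lists were chosen with earlier results of these data known. Beside the 10 genes, the text names family and list genes with 10 or more counts in 1 library and a 2-fold change in 1 of the 3 comparisons, GCLC, GCLM, SLC7A11, GSR, GPX4, ABCC1, NFE2L2 and KEAP1 whatever their change, the genes of the GSTM cluster, and the 5 neighbours of GSTP1 on each side and the 5 genes nearest to it in pattern. Cell type markers are named from their own list. Genes outside these rules are marked in the text, and single values of some genes that it covers are not reported here. Positions and promoter sequences are those of RefSeq on GRCh38.p14, in which 44698 genes of the table were found, and coding sequences are those of GENCODE. Figures were drawn with matplotlib 3.10.9.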

Additional observations from a re-analysis of the deposited data

Results flagged for a closer look

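For 5 of the 10 genes the resistant lines lay on opposite sides of parental MM468, each beyond counting error. The share of all genes that did so was not computed, so this count is a description of the chosen genes only. The log2 fold change of GSTP1 was −9.15, a bound, in the adriamycin-resistant line and 0.44 in the paclitaxel-resistant line. For GSTO1 the values were 0.34 and −0.64, for GSTK1 0.26 and −0.97, for MGST1 0.48 and −0.30, and for MGST2 0.73 and −0.71. The negative value of MGST1 turned to 0.03 in deposited TPM with a pseudocount of 1. Each line had 1 library and both shared the parental library, so the difference was not tested for any of these genes.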

How the results depend on the processing

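Of 202 fold changes of the 10 genes under other settings, 136 stayed inside the counting interval of the value given and 66 moved outside it. In 5 of the 202 the sign was opposite, in 2 values for MGST1 in the paclitaxel-resistant against the parental line (0.03 with TPM and either pseudocount) and 3 for MGST3 between the resistant lines (0.18 with TPM and either pseudocount, 0.04 with FPKM). The number of genes at least 2-fold lower in the adriamycin-resistant line moved from 2 to 1 with a 4-fold threshold. In the paclitaxel-resistant line against parental it moved from 3 to 1 with library size only, a 4-fold threshold or TPM with a pseudocount of 0.1, to 0 with TPM or FPKM and a pseudocount of 1, and to 2 when 100 counts were required. Between the resistant lines it moved from 4 to 3 with library size only or TMM over the 3 libraries, to 2 with a minimum of 100 counts or TPM with a pseudocount of 0.1, to 1 with TPM or FPKM and a pseudocount of 1, and to 0 with a 4-fold threshold. The summed level relative to parental, 1.03 and 0.932 in TPM, was 1.08 and 0.883 in FPKM and 0.942 and 0.789 in CPM. The higher threshold and minimum leave fewer genes by construction, and for the other settings the cause was not tested. Library size only raised the median over all genes, on the log2 scale, from 0.07 to 0.30 in the paclitaxel-resistant against the parental line, and the share of changed genes that were higher from 60.2% to 71.2%. Between the resistant lines the median rose from 0.04 to 0.28 and the share from 58.2% to 71.4%. GSTP1 was not given a value against the adriamycin-resistant line in TPM, FPKM or with another prior count, since it is listed at 0 there. No paired analysis was possible because each line has 1 library, and for the same reason no replicate could be left out. Counting error limits GSTM2 and GSTA4, the genes with the fewest counts.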
